A study of Mus musculus with 12 samples.

Results

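The KAP1 and histone H3 lysine 9 (H3K9) methylation silencing factors examined here are 10 genes, taken by symbol from 52535 gene entries per library: Trim28, Setdb1, Zfp57, Atrx, Daxx, Suv39h1, Suv39h2, Ehmt1, Ehmt2 and Cbx5. All 10 passed the filter on low counts, as did 14946 genes in all. RNA was measured in 6 libraries of E14, a mouse embryonic stem cell line, grown in serum with LIF and the kinase inhibitor pair 2i. The genotype labelled Bcat1-KO covers 4 libraries, 2 from clone 2 (KO2) and 2 from clone 1 (KO1), and WT has 2. Bcat1 encodes the cytosolic enzyme that moves the amino group off leucine, isoleucine and valine, and the study asked how its loss bears on pluripotency. Each knockout group is a single clone, so its 2 libraries are not independent samples of the genotype. How the knockout was made is not given in the sources used here. Bcat1 RNA itself stood between 579 and 662 CPM in every library, with a log2 fold change of 0.01 ± 0.08 (SE) and an adjusted p of 0.977, so RNA level gives no check of the knockout label. The groups are therefore called the libraries labelled knockout. Whether replicates were grown as separate cultures is not stated, so p-values reflect the spread among these libraries alone, and that spread may be technical.

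These factors keep retroelements, imprinted loci and lineage genes silent in embryonic stem cells. Zinc finger proteins with a KRAB domain bind DNA and bring in KAP1, the product of Trim28, which in turn brings the methyltransferase SETDB1 to trimethylate H3K9, a mark bound by heterochromatin protein 1. ATRX and DAXX deposit the histone variant H3.3 at such regions, the SUV39H enzymes act mainly at pericentric heterochromatin, and the G9a and GLP pair adds the mono- and dimethyl marks in euchromatin.

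Trim28 RNA fell in KO1 to 0.77 of the WT level, and it was higher in KO2 than in KO1. Suv39h1 RNA rose to 1.44 times the WT level in KO2 and to 1.37 times in KO1. Daxx and Ehmt2 RNA also fell in KO1. When both clones were taken as 1 genotype, none of the 10 factors passed the test. The remaining 6 factors, Setdb1, Zfp57, Atrx, Suv39h2, Ehmt1 and Cbx5, passed the test in none of the 4 comparisons.

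Gene counts per library were 11976149 and 12864573 in KO2, 12116149 and 12618319 in KO1, and 13294805 and 13923262 in WT. Levels are given as CPM, read counts divided by library size after scaling by the trimmed mean of M-values (TMM). All 10 embryonic stem cell markers, among them Pou5f1 and Nanog, were detected, with a summed level of 5841 to 6050 CPM in the libraries labelled knockout and 6555 to 6708 CPM in WT. Of 9 fibroblast or feeder markers, Postn, Lum, Dcn and S100a4 were at 0 everywhere, and the list summed to 20.7 to 33.5 CPM in the libraries labelled knockout and 23.7 to 23.9 CPM in WT. Endoderm and trophoblast markers summed to 41.5 to 47.4 CPM in the libraries labelled knockout and 59.3 to 60.8 CPM in WT, where Elf5 was at 0. Of the stem cell markers, Utf1 was lower for the genotype (-1.22 ± 0.31, adjusted p = 0.0488). By clone, 3 of 10 were lower in KO2 and 4 in KO1, and 0 were higher. Calls covered 17.9% of all tested genes in KO2 and 21.9% in KO1. Utf1 and Sox2 were lower in both clones, Sox2 at -0.28 in KO2 (adjusted p = 0.0293) and -0.32 in KO1 (0.0115). Tdgf1 was lower in KO2 (-0.34, adjusted p = 0.0073), and Klf4 (-0.41, 0.00499) and Dppa5a (-0.23, 0.0206) in KO1. The trophoblast factor Cdx2 fell to 3.39 ± 2.13 CPM in the libraries labelled knockout, against 25.6 ± 4.63 CPM in WT (-2.92 ± 0.40, adjusted p = 0.00355). Gata4 (1.43, adjusted p = 0.0159) and Eomes (0.92, adjusted p = 0.000814) were higher in KO1, and so was the fibroblast marker Thy1 (0.94, adjusted p = 0.0311). The fibroblast marker Col1a2 had 66 counts over the libraries labelled knockout and 1 over WT, and was called higher for the genotype (adjusted p = 0.012). It could pass the filter through the libraries labelled knockout alone, so that call follows from how the gene was kept. The part of these marker differences in the values below was not tested. KO1 had the widest gap between its replicates, with a chi-square per gene of 8.79, against 3.27 in KO2 and 3.57 in WT.

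RefSeq promoters on GRCm38.p6, spanning 250 bases before to 50 after the transcription start, matched all 10 factors. Shown are the promoters of Trim28, called in KO1 against WT and between the clones, and of Suv39h1, called in both clones against WT. That of Suv39h2, the paralog of Suv39h1, is shown beside them. Daxx and Ehmt2 were called in KO1 against WT only, and their promoters are not shown. Capitals mark matches, on either strand, to the GC box GGGCGG or the CCAAT box CCAAT.
Trim28, chr7:13023902-13024201, plus strand: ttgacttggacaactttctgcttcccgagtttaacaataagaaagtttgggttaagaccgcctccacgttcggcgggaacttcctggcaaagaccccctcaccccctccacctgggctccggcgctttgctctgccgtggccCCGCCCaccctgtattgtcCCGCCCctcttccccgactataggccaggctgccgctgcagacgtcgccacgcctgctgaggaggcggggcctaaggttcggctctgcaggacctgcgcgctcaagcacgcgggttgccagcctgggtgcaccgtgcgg
Suv39h1, chrX:8074711-8075010, minus strand: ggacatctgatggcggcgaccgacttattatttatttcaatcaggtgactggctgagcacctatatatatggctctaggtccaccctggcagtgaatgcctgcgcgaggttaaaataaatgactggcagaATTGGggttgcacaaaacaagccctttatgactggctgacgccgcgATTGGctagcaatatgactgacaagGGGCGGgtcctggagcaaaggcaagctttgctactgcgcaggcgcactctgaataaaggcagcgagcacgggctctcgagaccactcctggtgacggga
Suv39h2, chr2:3474937-3475236, minus strand: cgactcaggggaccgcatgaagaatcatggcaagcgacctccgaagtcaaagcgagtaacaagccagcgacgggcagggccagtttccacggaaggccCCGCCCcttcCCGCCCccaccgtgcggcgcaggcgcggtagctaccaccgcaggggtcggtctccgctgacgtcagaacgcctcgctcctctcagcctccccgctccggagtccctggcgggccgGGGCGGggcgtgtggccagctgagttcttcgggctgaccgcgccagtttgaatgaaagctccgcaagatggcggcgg

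The Trim28 window held 2 GC boxes, the Suv39h1 window 1 GC box and 2 CCAAT boxes, and the Suv39h2 window 3 GC boxes. Among 32851 promoters of the same length, 35.7% held a GC box and 37.4% a CCAAT box. The window was 64.0% G and C with 23 CpG in Trim28, 68.3% with 33 CpG in Suv39h2 and 53.0% with 15 CpG in Suv39h1, against medians of 52.7% and 7 CpG over all promoters. The TATA box TATAAA, the E-box CACGTG and the ETS core CCGGAAG were also searched on both strands, and these 3 windows held no match. Of the other called factors, the Daxx window held 2 ETS cores and the Ehmt2 window 2 E-boxes. Of all promoters, 13.6% held the TATA box, 7.15% the E-box and 8.86% the ETS core. RefSeq listed 2 starts for Suv39h1 and the window of 1 was used. A match describes the letters only.

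Levels of different genes were compared as TPM, which divides the counts by exon length before scaling each library to the same total. Trim28 was the most abundant factor, at 1499 ± 129 TPM in the libraries labelled knockout (SD, n = 4) and 1641 ± 19.3 TPM in WT (n = 2). Zfp57 followed at 428 TPM in WT, then Ehmt2 at 135, Daxx at 116, Cbx5 at 113, Setdb1 at 89.4, Atrx at 41.5, Ehmt1 at 34.7, Suv39h2 at 25.4 and Suv39h1 at 8.60 TPM. In WT only Daxx and Cbx5 were neighbours whose ranges met. Over all 6 libraries the ranges of Ehmt2 and Daxx, of Cbx5 and Setdb1, and of Atrx and Ehmt1 met as well. By raw count Trim28 ranked 22 among all genes in both KO2 libraries, 30 and 27 in KO1, and 20 and 18 in WT. The 10 factors together took 0.402% and 0.393% of gene counts in KO2, 0.371% and 0.377% in KO1, and 0.409% and 0.416% in WT. Trim28 alone supplied 47.1% to 54.4% of those counts in the libraries labelled knockout and 54.4% to 54.6% in WT.

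**Figure D1:**
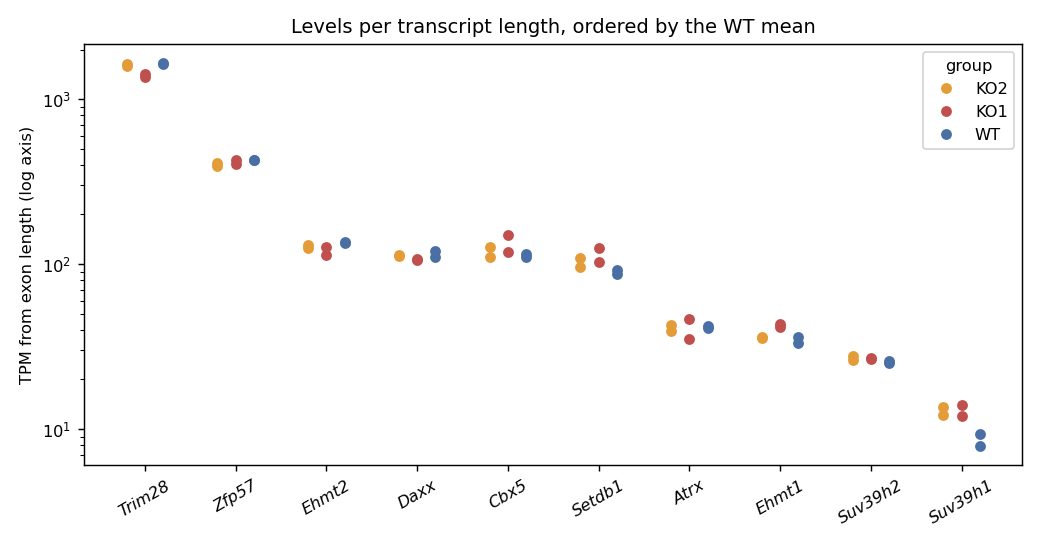
TPM computed from exon length, on a log axis, for the 10 silencing factors ordered by their WT mean. Each point is a library, with KO2, KO1 and WT side by side, and Trim28 at 1641 TPM in WT stands far above Suv39h1 at 8.60 TPM.

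Trim28 (chr7:12999114-13031035, plus strand, GENCODE M21 on GRCm38, as for all genes below) encodes KAP1, the scaffold of the pathway. Its level was 2169 and 2174 CPM in KO2, 1680 and 1876 CPM in KO1, and 2280 and 2335 CPM in WT. All 4 libraries labelled knockout lay below both WT libraries, and both KO1 libraries lay below both KO2 libraries. Trim28 fell in KO1 with a log2 fold change of -0.38 ± 0.07 (SE) against WT, at an adjusted p of 0.00119 in edgeR's quasi-likelihood F test after Benjamini-Hochberg adjustment, the test used for every adjusted p here. For KO2 against WT the value was -0.09 ± 0.07 (adjusted p = 0.448), with a 95% interval of -0.23 to 0.05. The difference between clones itself was 0.29 ± 0.07 for KO2 against KO1 (adjusted p = 0.0118). That call ended without KO2 replicate 1 (adjusted p = 0.124), without KO2 replicate 2 (0.107) or with scaling by library totals alone (0.0525). The Trim28 call in KO1 against WT held in all 13 alternatives. In bulk RNA, fewer cells of a type and less RNA per cell cannot be told apart.

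Within 2 Mb of Trim28, 14 other genes had a mean of 5 CPM or more. Their median log2 fold change was -0.26 in KO1 against WT, where the median over all genes of that level was -0.04, with 3 lower and 1 higher by the test. The same 14 genes had a median of -0.01 in KO2 against WT, and none passed. The part of the neighbourhood in the Trim28 value was not tested.

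Setdb1 (chr3:95323525-95357202, minus strand) encodes the methyltransferase that KAP1 recruits. Its level was 238 and 217 CPM in KO2, 256 and 223 CPM in KO1, and 201 and 214 CPM in WT. All libraries labelled knockout lay above WT, the second KO2 library by the least. The log2 fold change did not pass in KO2 at 0.14 ± 0.09 (adjusted p = 0.322) or in KO1 at 0.21 ± 0.09 (adjusted p = 0.0995). KO1 did pass with library totals alone (0.30, adjusted p = 0.0216), and its value was 0.30 without KO1 replicate 2. Over 13 alternatives the KO1 value ran from 0.10 to 0.30, and 3 of them called it. Setdb1 shares 4.73% of its exonic bases with genes on the opposite strand. Reads there could be left out as ambiguous if strand was not used. Of these genes Cers2, with 75 shared bases, was called higher for the genotype (0.34 ± 0.09, adjusted p = 0.0478). Its part in the Setdb1 value was not tested.

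Zfp57 (chr17:37001163-37010635, plus strand) encodes a KRAB zinc finger protein that brings KAP1 to methylated imprinting control regions. It stood at 496 and 490 CPM in KO2, 483 and 483 CPM in KO1, and 546 and 550 CPM in WT. The 4 libraries labelled knockout lay close together and below both WT libraries. As 1 genotype they gave a log2 fold change of -0.17 ± 0.07 with an interval of -0.30 to -0.03 and an unadjusted p of 0.0368, which did not pass after adjustment (0.184). The values were -0.15 ± 0.07 in KO2 (adjusted p = 0.165) and -0.18 ± 0.07 in KO1 (adjusted p = 0.0817). In a fit of only the 4 libraries compared, Zfp57 passed in KO2 (-0.16, adjusted p = 0.0445), the 1 call there among 13 alternatives.

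Atrx (chrX:105797615-105929403, minus strand) encodes a chromatin remodeller of the SWI/SNF family and has the longest exon sequence of the 10, at 21757 bases. It gave 298 and 284 CPM in KO2, 301 and 241 CPM in KO1, and 308 and 302 CPM in WT. The second KO1 library was far below the other 5. Neither KO2 (-0.07 ± 0.09, adjusted p = 0.674) nor KO1 (-0.17 ± 0.09, adjusted p = 0.207) passed against WT. Over 13 alternatives the KO1 value ran from -0.34, without KO1 replicate 1, to -0.02, and 2 of them called it.

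Daxx (chr17:33909414-33915590, plus strand) encodes the H3.3 chaperone that pairs with ATRX, and has the shortest exon sequence, at 3151 bases. Its level was 113 and 118 CPM in KO2, 100.2 and 106 CPM in KO1, and 118 and 129 CPM in WT. The KO1 libraries were the lowest pair, and the upper KO2 library nearly reached the lower WT library. Daxx fell in KO1 with a log2 fold change of -0.26 ± 0.09 (adjusted p = 0.0406), and was at -0.10 ± 0.09 in KO2 (adjusted p = 0.498). The KO1 call was kept in 5 of 13 alternatives and lost with DESeq2 (adjusted p = 0.0649). It ended without WT replicate 1 (0.0784), WT replicate 2 (0.286), KO1 replicate 1 (0.0647) or either KO2 library (0.0797 and 0.0819), and was kept without KO1 replicate 2. The difference between clones did not pass, at 0.16 ± 0.09 for KO2 against KO1 (adjusted p = 0.238).

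Suv39h1 (chrX:8061171-8074760, minus strand) encodes an enzyme that adds the trimethyl mark to H3K9. Reads counted on it numbered 243 and 299 in KO2, 276 and 261 in KO1, and 181 and 226 in WT. Its level was 20.5 and 23.6 CPM in KO2, 21.9 and 20.02 CPM in KO1, and 13.96 and 16.7 CPM in WT. All libraries labelled knockout were above both WT libraries. Suv39h1 rose in KO2 with a log2 fold change of 0.53 ± 0.15 (adjusted p = 0.0190), and in KO1 with 0.45 ± 0.15 (adjusted p = 0.0364). Both comparisons use the same WT libraries. As 1 genotype the value was 0.49 ± 0.14 with an interval of 0.21 to 0.77, which did not pass (adjusted p = 0.0759). The KO2 call ended without WT replicate 1 (0.40, adjusted p = 0.201) or without KO2 replicate 2 (0.42, adjusted p = 0.194), and the KO1 call was kept in 6 of 13 alternatives. That KO1 call ended without WT replicate 1 (0.281), WT replicate 2 (0.0603), KO1 replicate 1 (0.0886) or either KO2 library (0.0558 and 0.0503). Suv39h1 shares 767 exonic bases, 14.6% of the total, with the antisense gene Gm14820. Reads there could be left out as ambiguous if strand was not used. Gm14820 itself had 42 and 24 counts in KO2, 48 and 29 in KO1, and 40 and 40 in WT.

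Suv39h2 (chr2:3455815-3475031, minus strand), the paralog with the same activity, gave 39.1 and 38.5 CPM in KO2, 35.2 and 36.9 CPM in KO1, and 38.3 and 37.5 CPM in WT. KO2 lay just above WT and KO1 just below. The genotype value was -0.02 ± 0.10 with an interval of -0.21 to 0.17 (adjusted p = 0.935). It shares 440 exonic bases, 9.98%, with genes on the other strand, of which 357 lie in Dclre1c. Per exon length, Suv39h1 averaged 12.9 TPM in the libraries labelled knockout and 8.60 TPM in WT, below Suv39h2 in every library.

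Ehmt2 (chr17:34898469-34914052, plus strand) encodes G9a. Its level was 228 and 227 CPM in KO2, 185 and 221 CPM in KO1, and 248 and 255 CPM in WT. All libraries labelled knockout lay below WT, and the first KO1 library stood apart below the rest. Ehmt2 fell in KO1, at -0.31 ± 0.09 (adjusted p = 0.0189), and was at -0.15 ± 0.09 in KO2 (adjusted p = 0.285). Without KO1 replicate 1 the KO1 value was -0.19 (adjusted p = 0.0856), without WT replicate 1 or 2 the adjusted p was 0.0911 or 0.138, and the call was kept in 9 of 13 alternatives. The difference of KO2 from KO1, 0.16 ± 0.09, did not pass (adjusted p = 0.248). Over 13 alternatives it ran from 0.04 to 0.30, highest without KO1 replicate 2, and 1 of them called it.

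Ehmt1 (chr2:24789928-24919614, minus strand) encodes GLP, the partner of G9a. It stood at 93.9 and 95.8 CPM in KO2, 104 and 107 CPM in KO1, and 90.7 and 99.9 CPM in WT. KO2 lay inside the WT range and KO1 above it. The log2 fold change was -0.01 ± 0.09 in KO2 (adjusted p = 0.971) and 0.15 ± 0.09 in KO1 (adjusted p = 0.258).

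Cbx5 (chr15:103191544-103239816, minus strand) encodes heterochromatin protein 1 alpha, a reader of methylated H3K9. It gave 367 and 330 CPM in KO2, 400 and 336 CPM in KO1, and 350 and 336 CPM in WT. The groups overlapped, and in each clone the first library was the higher. The genotype value was 0.07 ± 0.09, with an interval of -0.12 to 0.25 (adjusted p = 0.735). In KO1 against WT it was 0.10 ± 0.09 (adjusted p = 0.453), and this rested on the replicates: 0.22 without KO1 replicate 2 (adjusted p = 0.0195) and -0.03 without KO1 replicate 1 (adjusted p = 0.840).

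**Figure D2:**
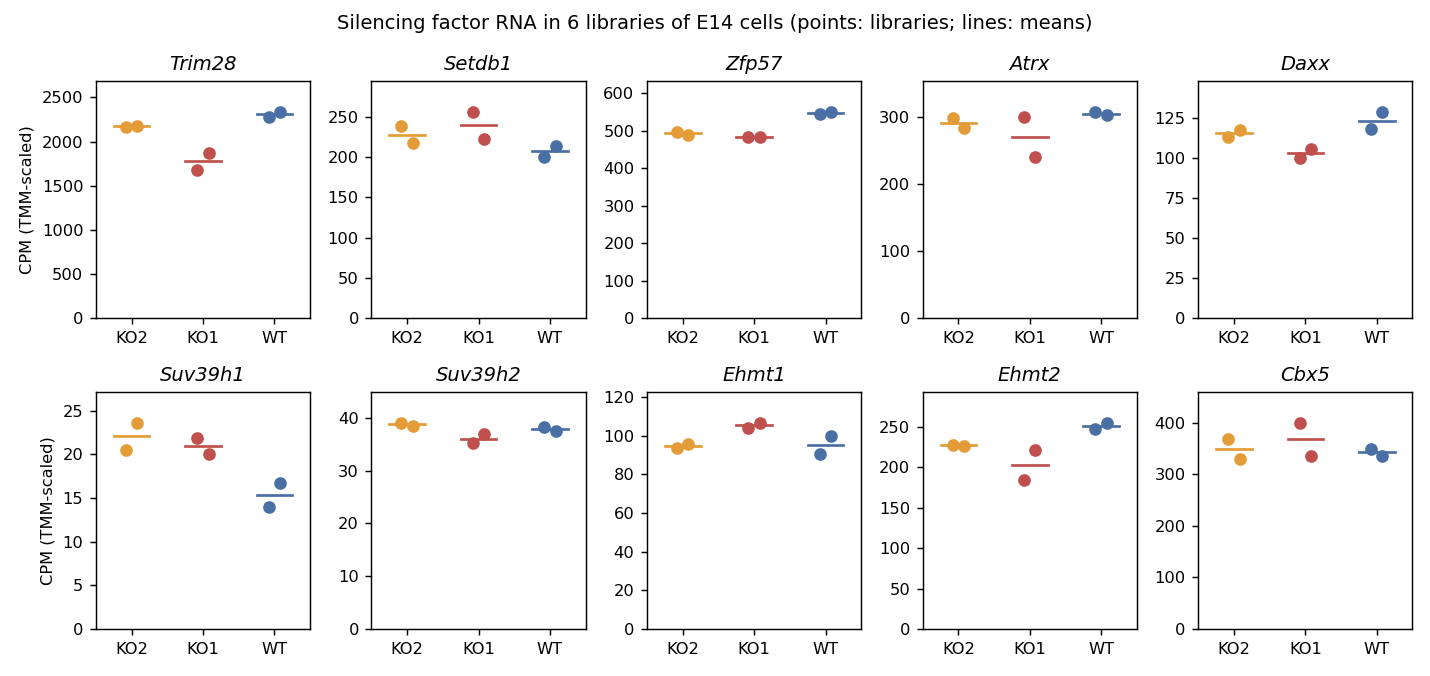
TMM-scaled CPM of each silencing factor in KO2, KO1 and WT, on axes that start at 0. Points are libraries and lines are means of 2, and Trim28 is lowest in KO1 (1680 and 1876 CPM) while both WT libraries of Suv39h1 (13.96 and 16.7 CPM) lie below the rest.

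Counts of called factors are set beside the share of all tested genes called. For KO2 against WT, 1 of 10 factors was called, and it was higher, where 17.9% of all tested genes were called and 10.1% were higher. In KO1 against WT, 4 of 10 were called, 1 higher and 3 lower, where 21.9% of tested genes were called, 12.4% higher and 9.53% lower. Between KO2 and KO1, 1 of 10 was called, higher in KO2, against 14.3% of tested genes called and 6.62% higher. With both clones as 1 genotype against WT, 0 of 10 passed in edgeR, against 6.36% of tested genes, and DESeq2 also called 0. At an unadjusted p under 0.05, 3 of 10 passed (Suv39h1, Zfp57 and Ehmt2), against 23% of tested genes. A fit that took the mean of both clone contrasts, and so left the difference between clones out of the spread, called 3: Trim28 at -0.23 (adjusted p = 0.0123), Suv39h1 at 0.49 (adjusted p = 0.0119) and Ehmt2 at -0.23 (adjusted p = 0.0416).

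Libraries labelled knockout and WT libraries did not overlap in 7 factors, 2 higher (Setdb1 and Suv39h1) and 5 lower (Trim28, Zfp57, Atrx, Daxx and Ehmt2). Across all tested genes 18.3% were higher and 16.7% lower without overlap. The median log2 fold change over the 10 was -0.07 for the genotype, -0.04 for KO2 and -0.12 for KO1 against WT, where the median over all tested genes rounded to 0 in each. No log2 fold change of the 10 exceeded 0.53 in size in the 4 comparisons.

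**Figure D3:**
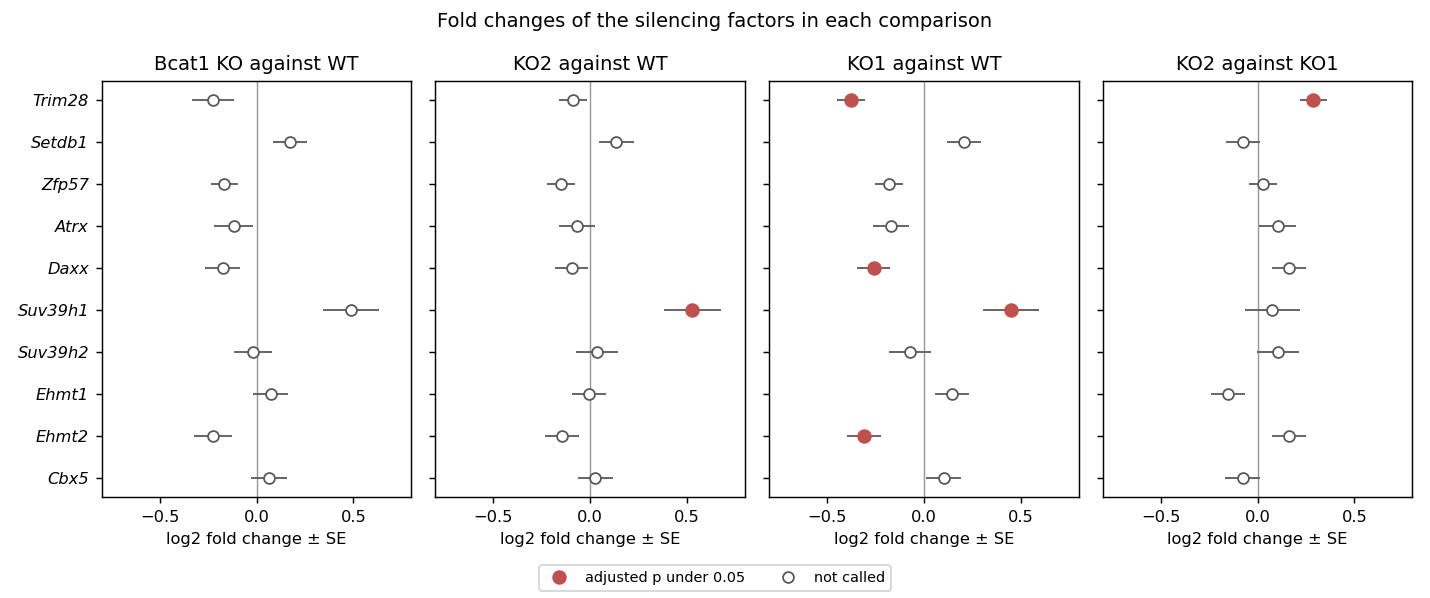
Log2 fold change of each factor in 4 comparisons, with bars of 1 SE and filled points for an adjusted p under 0.05. No point is filled for the genotype, Suv39h1 is filled in KO2 and KO1 against WT, Trim28, Daxx and Ehmt2 are filled to the left in KO1, and Trim28 alone is filled in KO2 against KO1.

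Daxx, Ehmt2 and Zfp57 lie on chromosome 17, as does Wiz (chr17:32354055-32389439), whose zinc finger product belongs to the G9a and GLP complex. Wiz had 82.6 and 85.96 CPM in KO2, 38.5 and 46.3 CPM in KO1, and 74.5 and 86.4 CPM in WT. It fell in KO1, with a log2 fold change of -0.93 ± 0.11 (adjusted p = 1.58e-05), kept in all 13 alternatives, and was at 0.07 ± 0.11 in KO2 (adjusted p = 0.728). Its 60 neighbours within 2 Mb had a median of -0.84 in KO1, with 47 lower and 1 higher, and of -0.02 in KO2. Daxx stands at an edge of this stretch. In KO1 its 34 neighbours on the side of lower coordinates had a median of -0.88, with 30 lower, and its 61 neighbours on the other side had a median of -0.22, with 17 lower and 7 higher. For Ehmt2 the KO1 medians were -0.42 over 48 neighbours and -0.07 over 44. In KO2 the medians on either side of Daxx and of Ehmt2 lay between -0.01 and 0.03. The 47 neighbours of Zfp57 had a median of -0.05 in KO1. What the neighbourhood contributes to the values of Daxx, Ehmt2 and Wiz was not tested.

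**Figure D4:**
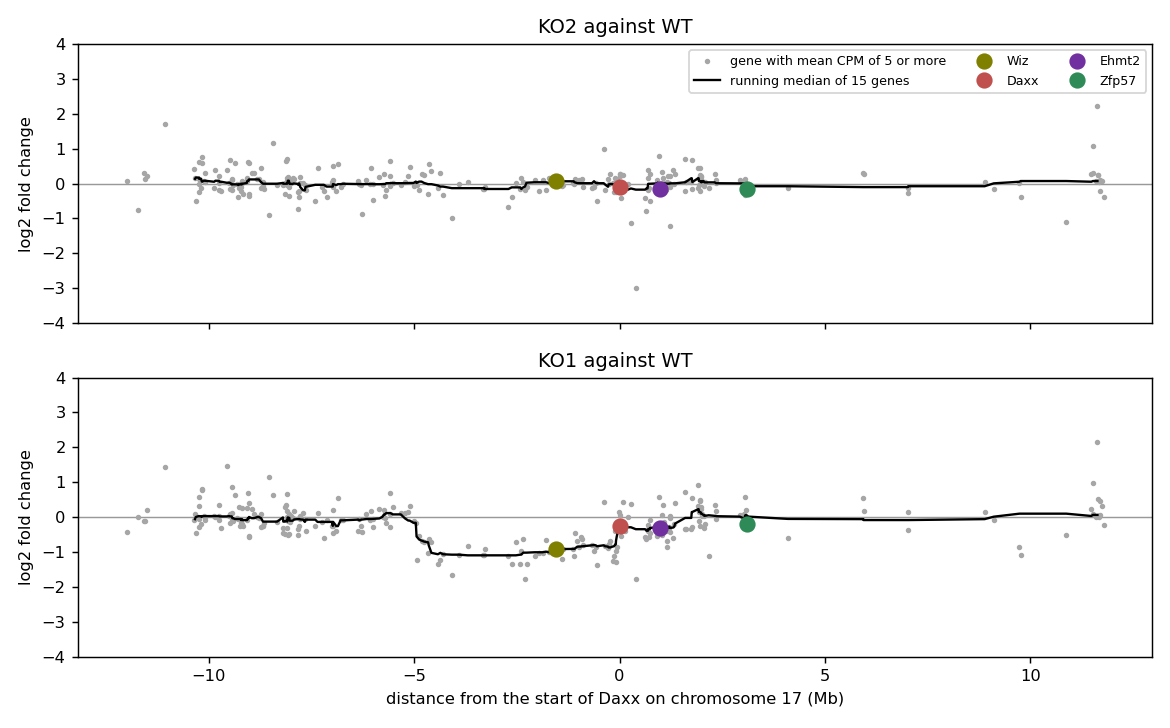
Log2 fold change against WT of genes with a mean of 5 CPM or more, by distance in Mb from the start of Daxx, for KO2 (top) and KO1 (bottom), with a running median of 15 genes. In KO1 the line drops to about -1 over the last 5 Mb to the left of Daxx, where Wiz sits at -0.93, steps up at Daxx and lies near 0 farther left, while in KO2 it stays near 0 throughout.

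Fold changes also moved with transcript length. Across 10470 genes, which are not independent replicates, the Spearman correlation of exon length with the log2 fold change was 0.173 in KO2 and 0.196 in KO1 against WT. Between the replicates of KO1 it was 0.366, and the top quartile of genes by length exceeded the bottom one by 0.235 in the median log2 ratio of replicate 1 to replicate 2. Among the factors the KO1 replicates differed most for Atrx (0.32), Ehmt2 (-0.26) and Cbx5 (0.25) on the log2 scale. In a fit with exon length corrected, chosen after seeing the data, Atrx was lower in KO2 (-0.21, adjusted p = 0.0488) and in KO1 (-0.31, adjusted p = 0.0042), and Zfp57 was lower in KO1 (-0.19, adjusted p = 0.0451). The calls of Trim28, Daxx, Suv39h1 and Ehmt2 in KO1, and of Suv39h1 in KO2, were kept in that fit.

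Of 32 cofactors of KAP1, SETDB1, G9a with GLP and heterochromatin protein 1, 1 was lower for the genotype, 3 were higher and 3 lower in KO2, and 1 was higher and 6 lower in KO1. Calls covered 6.36% of all tested genes for the genotype, 17.9% in KO2 and 21.9% in KO1. With both directions counted together, the cofactors were called about as often as other genes in each clone. By direction in KO1, 12.4% of tested genes were higher and 9.53% lower, beside 1 higher and 6 lower of the 32 cofactors. Prdm16, a PR domain protein with reported H3K9 methyltransferase activity, fell to 9.06 ± 1.47 CPM in the libraries labelled knockout (SD, n = 4), against 17.6 ± 0.578 CPM in WT (n = 2). Its log2 fold change was -0.96 ± 0.18 (adjusted p = 0.0145), a call that ended without WT replicate 1 (0.156) or 2 (0.172). Genes named by clone, other than those of the stated rule, were chosen after their values were seen. Chd3, a remodeller subunit of the NuRD complex that KAP1 binds, had 29.9 and 25.9 CPM in KO2, 13.6 and 16.3 CPM in KO1, and 14.9 and 13.96 CPM in WT. It rose in KO2 (0.95 ± 0.15, adjusted p = 0.000195). Hdac2, a histone deacetylase of the same complex, also rose in KO2 (0.35 ± 0.08, adjusted p = 0.00473). In both clones Sumo2, which modifies KAP1 and its partners, and Trim24, a KAP1 relative, fell, and Prdm2, a PR domain methyltransferase, rose. Sumo2 was at -0.25 in KO2 and -0.32 in KO1, Trim24 at -0.26 and -0.31, and Prdm2 at 0.35 and 0.32, on the log2 scale. Cbx3, which encodes heterochromatin protein 1 gamma, and Morc3 fell in KO1, at -0.28 (adjusted p = 0.022) and -0.26 (adjusted p = 0.048). Without WT replicate 1 these calls ended. The log2 fold changes were then -0.17 for Sumo2, -0.21 for Trim24 and 0.24 for Prdm2 in KO2. In KO1 they were -0.24, -0.26 and 0.20 for the same genes, -0.22 for Cbx3 and -0.23 for Morc3. Of 13 alternatives, 6 kept the call of Sumo2 in KO2, 9 that of Trim24 and 9 that of Prdm2. In KO1, 11 kept Sumo2, 11 Trim24, 5 Prdm2, 7 Cbx3 and 5 Morc3. DESeq2 did not call Sumo2 (adjusted p = 0.0617) or Prdm2 (0.0501) in KO2. Nor did it call Prdm2 (0.0776) or Morc3 (0.07) in KO1. The Hdac2 call ended without WT replicate 2 (log2 fold change 0.29) or KO2 replicate 1 (0.33).

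Of all tested genes, 6.36% were called for the genotype, 17.9% in KO2 and 21.9% in KO1, shares to read beside the next 3 lists. Among zinc finger factors that bring KAP1 to retroelements or imprinted loci, 11 of 13 were tested. The 1 call among them in these comparisons with WT was Zfp819, lower in KO2, at 1.351 and 1.503 CPM in KO2 and 4.63 and 3.84 CPM in WT (-1.56 ± 0.35, adjusted p = 0.00478, and 0.0611 without WT replicate 1). Of 9 tested H3K9 demethylases, 1 was higher for the genotype, Phf2, at 19.8 ± 1.87 CPM in the libraries labelled knockout (SD, n = 4) and 10.5 ± 1.55 CPM in WT (n = 2). Its log2 fold change was 0.92 ± 0.16 (adjusted p = 0.0120), a call that ended without WT replicate 1 (0.0967) or 2 (0.189). Kdm4a, which removes the trimethyl mark, fell in KO1 (-0.39 ± 0.08, adjusted p = 0.00188) and was at -0.02 in KO2 (adjusted p = 0.892). Of 10 genes for H3.3 and its other chaperones, Ubn1, a subunit of the HIRA complex, rose in KO2 (0.42 ± 0.10, adjusted p = 0.00669). H3f3a, one of the H3.3 genes, fell in KO2 (-0.47 ± 0.13, adjusted p = 0.0149) and in KO1 (-0.50 ± 0.13, adjusted p = 0.00864). Without WT replicate 2 the adjusted p was 0.0794 for Ubn1 and 0.211 for H3f3a in KO2, and 0.150 for H3f3a in KO1. Ubn1 also lost its call without WT replicate 1 (0.0587), KO2 replicate 1 (0.0699) or KO2 replicate 2 (0.0710), and H3f3a in KO2 without KO2 replicate 1 (0.165).

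Lists of germline, 2-cell stage and imprinted genes were described beside the factors. Whether the factors act on these genes here was not tested. Not all the germline genes were silent in WT, where Stag3 stood at 55.5 CPM. Of 24 germline genes 22 were tested, and 7 were higher for the genotype, 9 in KO2 and 16 in KO1. The rest did not pass. Of all tested genes, 6.36% were called in either direction for the genotype, 10.1% were higher in KO2 and 12.4% higher in KO1. The germline list was chosen with earlier results of these data known, so its counts are not independent of them. A gene silent in WT could enter the test through a clone alone, so these counts and medians are not those of all 24. Median log2 fold changes were 1.00 for the genotype, 0.25 in KO2 and 1.65 in KO1. Tuba3a, a testis alpha-tubulin, stood at 76.8 and 81.8 CPM in KO2, 122 and 141 CPM in KO1, and 4.78 and 3.77 CPM in WT (4.62 ± 0.32 for the genotype, adjusted p = 0.000206). Fkbp6, a piRNA pathway co-chaperone, rose by 4.15 ± 0.17 (adjusted p = 8.26e-06), and Dazl, a germ cell RNA-binding protein, by 3.26 ± 0.21 (adjusted p = 0.00016). Tuba3b, whose reads may be split with its near-identical copy Tuba3a, had 100 counts over the libraries labelled knockout and 0 in WT. That is at least 17.6-fold higher, with a floor of 3 counts over the WT group.

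Of 18 genes of the 2-cell stage embryo, 4 had enough counts to be tested, and these are members of repeated families whose reads may be split. These 4 had 0 to 4 counts over WT and could pass the filter through KO1 alone, so their calls as higher in KO1 follow from how they were kept. Gm4340 had 47 counts in KO1 and 1 in WT, or 48.6 times as many relative to library size, with exact 95% bounds of 8.3 and 1958 that cover counting error only. Gm8300 had 24 and 13 counts in KO1 and 1 and 3 in WT (3.18 ± 0.77, adjusted p = 0.00699), a call that ended without WT replicate 1 (0.116), WT replicate 2 (0.0544) or KO1 replicate 1 (0.0907). In KO2 Gm8300 had 0 and 1 counts and Gm4340 had 5 and 6, or 11.9 times the WT level, with bounds of 1.73 and 512. Over both KO2 libraries Zscan4c had 4 counts and Zscan4d 2, against 0 and 1 in WT.

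Imprinted genes, whose marks ZFP57 and KAP1 guard, moved both ways. Of 25 tested, 2 were higher and 2 lower for the genotype, 7 and 3 in KO2, and 5 and 9 in KO1, where calls covered 6.36%, 17.9% and 21.9% of all tested genes. Mest rose to 38.7 ± 5.58 CPM in the libraries labelled knockout, against 13.2 ± 0.609 CPM in WT (1.56 ± 0.15, adjusted p = 0.000849). Grb10, an adaptor that restrains growth signalling, fell to 26.3 ± 4.93 CPM in the libraries labelled knockout, against 70.3 ± 0.883 CPM in WT (-1.42 ± 0.15, adjusted p = 0.00114). Impact fell by 0.47 ± 0.10 (adjusted p = 0.0266), and H19, a noncoding RNA, rose by 2.1 ± 0.48 (adjusted p = 0.0327). H19 had 28 and 28 counts in KO2, 22 and 20 in KO1, and 4 and 8 in WT. It could pass the filter through the libraries labelled knockout alone, so its call is not independent of how it was kept. Without WT replicate 1 the adjusted p was 0.298 for Impact and 0.307 for H19, without WT replicate 2 it was 0.186 and 0.152, and H19 also lost its call without either KO2 library (0.0675 and 0.0613). No comparison of a list with other genes was made beyond these counts and medians.

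**Figure D5:**
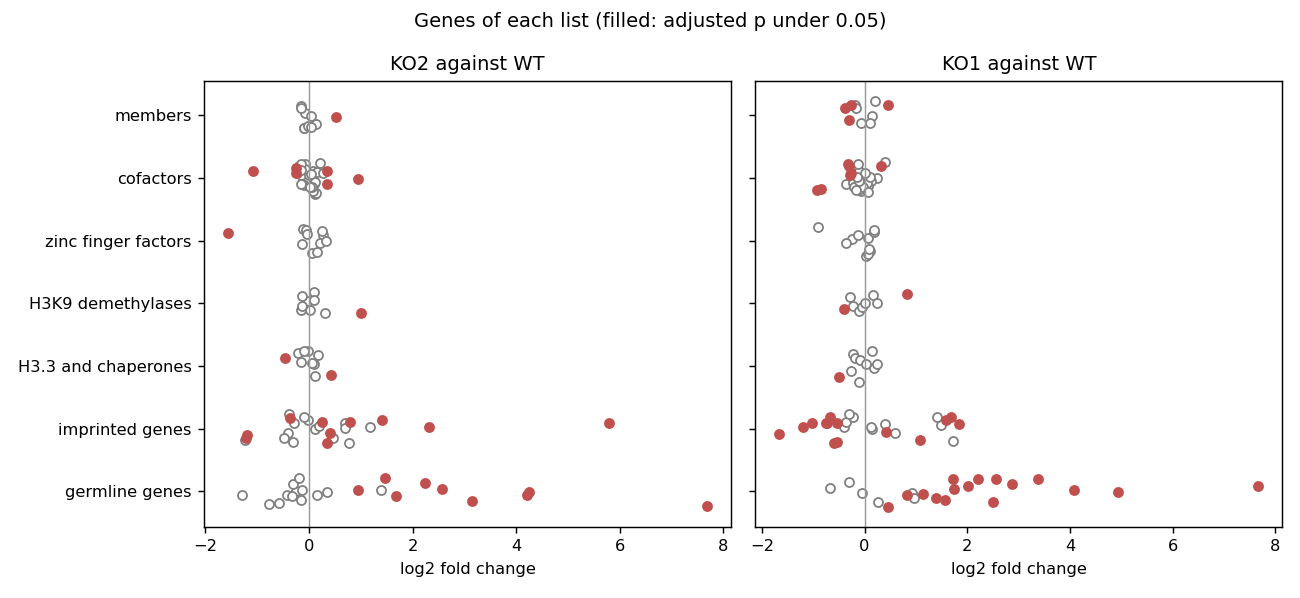
Log2 fold change of each tested gene, by list, for KO2 (left) and KO1 (right) against WT, filled where the adjusted p is under 0.05. Among the cofactors the filled points farthest from 0 are Prdm16 (-1.08) and Chd3 (0.95) in KO2 and Wiz (-0.93) and Prdm16 (-0.85) in KO1, while 9 germline genes in KO2 and 16 in KO1 are filled to the right.

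Over the 6 libraries, the genes whose log2 CPM was most like that of Trim28 were Ube2c (Pearson r = 0.998), Cdca4 (0.996) and Tnk1 (0.996), out of 9214 genes with a mean of 10 CPM or more. Ube2c, a ubiquitin-conjugating enzyme of the cell cycle, had 212 and 214 CPM in KO2, 157 and 177 CPM in KO1, and 220.0 and 227 CPM in WT. The likeness is a description over 6 libraries in 3 groups, and 203 genes, 2.2%, reached an r of 0.95.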

How the data were processed

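Total RNA was freed of ribosomal RNA before sequencing, per the labels' protocols. Deposited values were whole-number counts of reads per gene, not normalised by the authors, in 6 files of 52535 genes and 5 summary entries. Ambiguous reads, in the summary entries, were 6.96% to 9.10% of a library, reads without a feature 4.14% to 5.35% and reads with several alignments 15.6% to 16.6%. All of these stayed out of library sizes and tests. Build mm10 is listed in the submitters' processing notes, with the tools HTSeq 0.9.1, HISAT2 2.1.0 and DESeq2 1.18.1 and no roles, and neither annotation nor strand setting is given in the sources used here. A further 6 samples were not analysed here.

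Counts were fitted with edgeR 4.0.16 in R 4.3.3 (TMM scaling, filterByExpr, quasi-likelihood F test, two-sided), with p-values adjusted over all 14946 tested genes at a threshold of 0.05. The genotype comparison took both clones as 1 group, and each clone was compared in a model of 3 groups sharing 1 spread. Treating 4 libraries of 2 clones as independent can make the genotype p-values too small. Intervals are 95% from the SE. The factors and lists were chosen with earlier results of these data known. From each list, up to 4 genes called for the genotype with the smallest p were named, or else up to 2 called in a clone. For likeness, the 3 genes with the highest Pearson r with Trim28 were named. Positions and exon lengths come from GENCODE M21, and all 10 factors had 1 position. The fits were tested on simulated counts. For the genotype the same change was planted in both clones, with no spread between clones, so that simulation cannot check the effect of such spread. Alternatives were other scaling, filters, DESeq2 1.42.0, a replicate block, averaging both clone contrasts, fitting 4 libraries alone and omitting 1 library at a time, and an exon length correction was chosen after seeing the data. Same-numbered replicates deviated together at correlations of 0.05, -0.01 and 0.13, so the numbers were not taken to pair samples. Figures were drawn with matplotlib 3.10.9.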

Additional observations from a re-analysis of the deposited data

Results flagged for a closer look

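In Ehmt2, the first KO1 library, at 185 CPM, was far below the other 3 libraries labelled knockout, with a gap of 0.841 of the group's range. Chance alone sets a library apart in this way in about 1 of 20 groups, and 34 groups were tested. The group of 4 joins both clones.

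Several genes differed between the clones by the test of KO2 against KO1. Trim28 was higher in KO2, at 0.29 ± 0.07 on the log2 scale (adjusted p = 0.0118), and so was Wiz, at 0.99 ± 0.11 (adjusted p = 1.51e-05). Kdm4a was higher in KO2 at 0.37 (adjusted p = 0.00431), Chd3 at 0.89 (adjusted p = 0.000481), Hdac2 at 0.30 (adjusted p = 0.0151) and Grb10 at 0.45 (adjusted p = 0.0177). Tuba3a was lower in KO2, at -0.73 (adjusted p = 0.000138), and Gm4340 at -2.0 (adjusted p = 0.0338). Gm8300 had a fitted value of -4.85 (adjusted p = 0.00305), from 1 count in KO2 and 37 in KO1. That is 0.0283 times as many relative to library size, with exact 95% bounds of 0.000698 and 0.168. Gm4340 and Gm8300 could pass the filter through KO1 alone, so their calls as lower in KO2 follow from how they were kept.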

How the results depend on the processing

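Across the alternatives, 465 values of the factors kept their direction and side of the threshold, 24 lost a call, 15 gained one and 16 changed sign. Genes called for the genotype, 951 as reported, were 1752 without the low-count filter, 3226 with the mean of both clone contrasts, which called 3 factors, and 79 to 948 leaving out 1 library, with 79 and 99 without WT replicate 1 or 2. In KO2 the fit of 4 libraries called 4065 genes, against 2674, and 2 factors, and the exon length correction called 2 factors. Leaving out 1 library in KO2 against WT gave 1165 to 4191 genes and 0 to 1 factors. In KO1 the 4 factors called became 2 with DESeq2 and 2 in the fit of 4 libraries. Leaving out 1 library in KO1 against WT gave 1576 to 4310 genes, against 3280, and 1 to 6 factors. Between the clones, library totals called 0 factors, and leaving out 1 library gave 974 to 3155 genes, against 2141, and 0 to 2 factors. Where leaving out a library left a group with 1, that library was assumed to vary like the others. The causes of these moves were not tested.

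With library totals alone, 75.0% of calls in KO1 against WT were higher, against 56.6%, and 30.1% in KO2 against KO1, against 46.2%. The shift of the median of all genes stayed at or under 0.09. Library totals gave 0.035 for Suv39h2 for the genotype, 0.018 for Suv39h2 in KO1, 0.012 for Ehmt1 in KO2 and -0.043 for Zfp57 in KO2 against KO1. The exon length correction gave -0.001 for Cbx5 for the genotype and -0.036 in KO2. Leaving out 1 library moved Suv39h2 for the genotype between -0.049 and 0.009, Ehmt1 in KO2 between -0.075 and 0.067, Cbx5 in KO2 between -0.061 and 0.103 and Cbx5 in KO1 between -0.030 and 0.222. In KO2 against KO1 it moved Setdb1 between -0.168 and 0.032, Atrx between -0.045 and 0.274, Suv39h1 between -0.025 and 0.174 and Cbx5 between -0.195 and 0.057.

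The samples share only a replicate number. A replicate block called 646 genes for the genotype, 3685 in KO2, 4410 in KO1 and 3007 in KO2 against KO1. With the block, 0 factors were called for the genotype, 1 in KO2, 6 in KO1 and 1 between the clones. The 2 added in KO1 were Setdb1 (0.205, adjusted p = 0.0307) and Zfp57 (-0.182, adjusted p = 0.0254).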

Other observations

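Some imprinted genes moved apart in the clones, and those named here were chosen after their values were seen. Peg10 was at 0.80 ± 0.10 in KO2 (adjusted p = 3.29e-05) and -0.67 ± 0.11 in KO1 (adjusted p = 0.0003) against WT, and the difference of KO2 from KO1 was 1.47 (adjusted p = 1.2e-07). Peg3, a zinc finger gene expressed from the paternal copy, was at 0.34 in KO2 (adjusted p = 0.0474) and -1.02 in KO1 (adjusted p = 1.22e-05), with a difference of 1.36 (adjusted p = 9.79e-07). Phlda2, expressed from the maternal copy, went the other way, at -1.20 in KO2 (adjusted p = 0.00388) and 1.59 in KO1 (adjusted p = 3.17e-05), with a difference of -2.79 (adjusted p = 6.45e-07). Peg13 had 64 counts over KO2, 3 over KO1 and 1 over WT. That is 69.3 times as many relative to library size in KO2 as in WT, with exact 95% bounds of 12 and 2778. The bounds cover counting error only. Peg13 could pass the filter through KO2 alone, so its excess there is not independent of how it was kept.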
